A study of Mus musculus with 16 samples.

Results

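The odorant receptor genes of mouse chromosomes 14 and 16 were followed in sorted mucosal cells of the nose from S100a5-tauGFP mice. The members were taken as the array's probe sets that lie on chromosome 14 or 16, by their identifiers, and carry an Olfr symbol other than a pseudogene symbol. This gave 75 genes, 39 on chromosome 14 and 36 on chromosome 16, out of 1080 odorant receptors and 19505 named genes on the array. Each of the 75 had 1 probe set, and all 75 matched a protein-coding gene of RefSeq. S100a5-tauGFP mice carry a GFP reporter named for S100a5, a calcium-binding protein gene whose expression in olfactory sensory neurons depends on odour-evoked activity. The sort therefore separates neurons with more reporter from the other cells of the mucosa.

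All 4 groups held cells of this strain. The 24 mice, of both sexes and 7 to 12 weeks old, were housed singly for 40 h under clean air flowing at 3.1 L/min. After 26 h they received 10 s pulses every 20 min of either filtered air, the vehicle, or 2-octanone, a ketone odorant. Mice were pooled by 3, which gave 4 vehicle pools and 4 2-octanone pools. Both fractions of a replicate number were taken to come from 1 pool, with 1 array each. The labels do not state this, and it is inferred from the number of mice. The groups were thus vehicle GFP+, vehicle GFP−, 2-octanone GFP+ and 2-octanone GFP−, with 4 arrays each on Clariom S mouse arrays. All values are normalised signals on the log2 scale, where a difference of 1 is a 2-fold difference. A call means a limma p under 0.05 after Benjamini-Hochberg adjustment over all named probe sets. In such sorted material, fewer cells that express a receptor and less receptor RNA per cell cannot be told apart.

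Each olfactory sensory neuron expresses 1 allele of 1 receptor gene, and the receptor sets which odorants the cell answers. Odorant binding acts through the G protein subunit Gnal and the adenylyl cyclase Adcy3 on the cyclic nucleotide-gated channel of Cnga2, Cnga4 and Cngb1. Receptor genes lie in clusters, and distant enhancers take part in the choice of a gene within a cluster. The first such enhancer described, the H element, lies on chromosome 14 beside Olfr1507 (MOR28), Olfr1508 (MOR10) and Olfr1509 (MOR83, also MOR244-3), and its loss abolishes the expression of these nearby receptors. Olfr1509 is also known as a receptor for (methylthio)methanethiol, a volatile of male mouse urine. Older MOR names group receptors into subfamilies by sequence. Here they were taken from the RefSeq synonyms.

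Some arrays stood apart. The pools numbered 4 of both exposures had S100a5 signals of 13.11 to 13.92 in both fractions, against 15.45 to 16.98 on the other 12 arrays. Over all pools S100a5 was 0.83 (SE 0.60) higher in GFP+ cells, which did not pass the limma test (adjusted p = 0.304). With the pool as a fixed block it did (adjusted p = 0.000487), with the pool as a random block it did not (adjusted p = 0.187), and without both pools numbered 4 the difference was 1.02 (adjusted p = 5.66e-06). The vehicle GFP− array of pool 4 was the lowest of its group for 63 of the 75 members, with a median deviation of −0.71 from the group mean. The mean of 7 neutrophil genes was 7.32, 7.56, 10.48 and 13.51 on the 2-octanone GFP+ arrays of pools 1 to 4. It was 7.01 to 8.86 on the vehicle GFP+ arrays and 15.30 to 16.72 on the 8 GFP− arrays. Receptor counts are given with and without these pools.

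Most of these receptors had a higher signal in the GFP+ cells. Over both exposures 49 of 75 members rose, 13 fell and 13 were not called, so 82.7% of them were called. Of all named probe sets 30.7% were called (16.7% higher and 14% lower), and of all odorant receptors 70.7% (44.8% higher and 25.9% lower). The median difference between GFP+ and GFP− cells was 1.23 for the members, 0.39 for all odorant receptors and 0.13 for all named probe sets. The chromosomes were not tested against each other and gave 26 higher and 7 lower of 39 on chromosome 14 (median 1.22) and 23 higher and 6 lower of 36 on chromosome 16 (median 1.32). Differences ranged from −6.18 for Olfr1507 to 3.41 for Olfr726. By fitted difference 21 members were over 4-fold higher and 8 over 4-fold lower. Of all 1080 odorant receptors 149 were over 4-fold higher and 146 over 4-fold lower. Of all 19572 named probe sets 153 were over 4-fold higher and 705 over 4-fold lower.

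These calls moved little when the arrays that stood apart were left out. Without both pools numbered 4 there were 46 members higher and 17 lower, and without the 2-octanone pools numbered 3 and 4 there were 43 higher and 15 lower. Of all 19572 named probe sets 5323 and 4092 were called in these settings, against 6000 with all pools. The background depended on the scaling. With each array centred on its median, the median difference of all named probe sets moved from 0.13 to 0.41, the share called from 30.7% to 77.4%, and the higher share of those calls from 54.4% to 86.4%. Under that scaling 50 members were higher and 12 lower, or 82.7% called, close to the 78.2% of all odorant receptors and the 77.4% of all named probe sets. Their median of 1.51 stood above the 0.66 of all odorant receptors and the 0.41 of all named probe sets under the same scaling.

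The direction of the sort repeated across pools. In 44 members GFP+ exceeded GFP− in all 8 pools, as it did for 13.5% of all named probe sets and 38.3% of all odorant receptors. In 11 members it was lower in all 8 pools, against 12.2% and 21.9%. For 34 members the 8 GFP+ arrays all lay above the 8 GFP− arrays, as for 3.18% of all named probe sets and 24.3% of all odorant receptors. For 9 members they all lay below, against 8.25% and 16.3%. After vehicle 43 members were called higher and 11 lower. Of all named probe sets 7.54% were called higher and 11% lower there (18.6% in all), and of all odorant receptors 56.1% were called. After 2-octanone 40 members were called higher and 11 lower, against 5.29% and 9.8% of all named probe sets (15.1% in all) and 52.4% of all odorant receptors called. The 50 members called in both exposures all had the same sign in both.

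**Figure D1:**
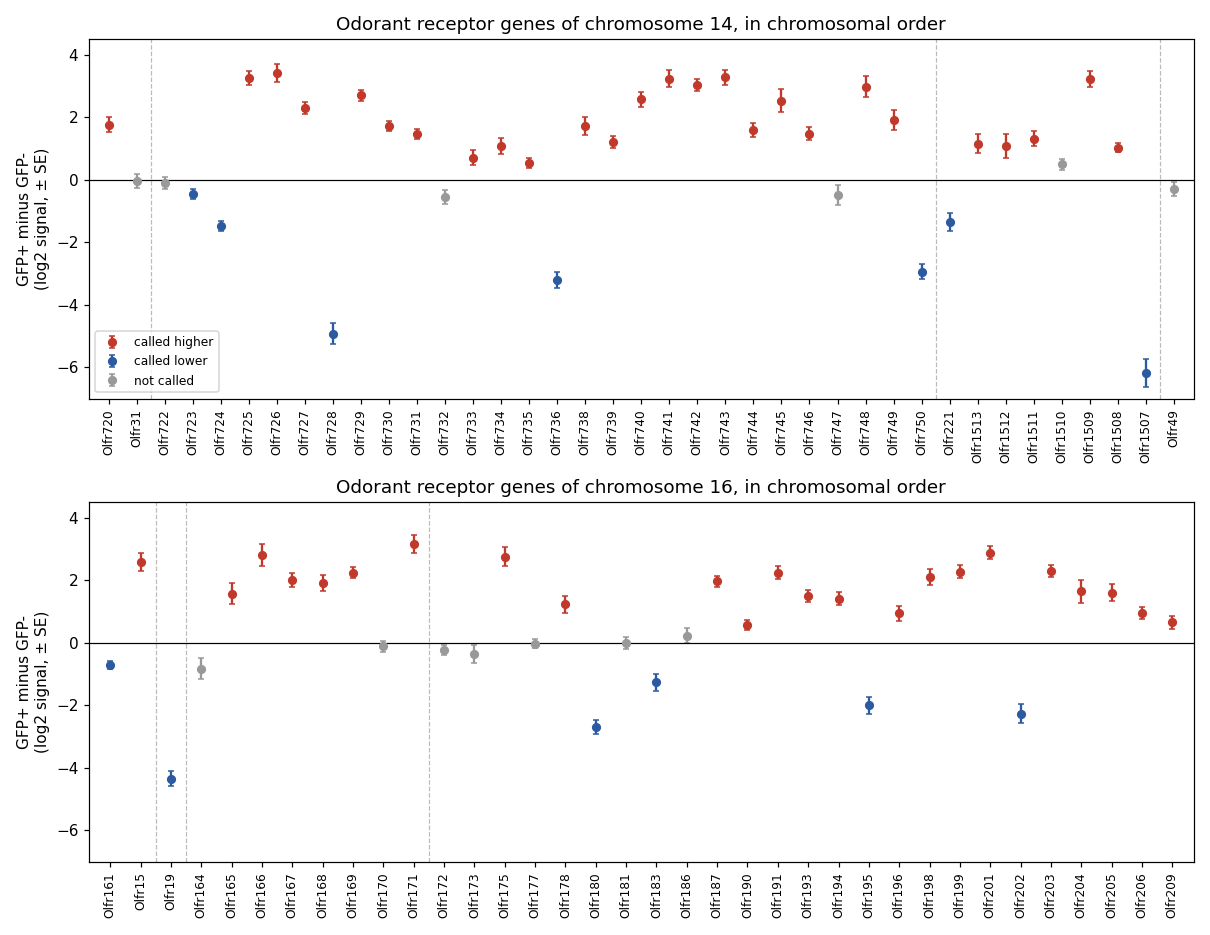
GFP+ minus GFP− difference (log2 signal, ± SE of the limma fit over both exposures) of the 75 receptors, in chromosomal order along chromosome 14 (top) and chromosome 16 (bottom). Red marks members called higher, blue called lower and grey not called, and dashed lines part the gene clusters. Olfr723 and Olfr724 are the only adjacent blue members within a cluster, Olfr1507 is lowest at −6.18 and Olfr726 is highest at 3.41.

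Olfr1507 was the receptor of the array with the largest difference toward GFP− cells, ranking 1 of 1080. After vehicle its GFP+ signals were 6.55, 7.66, 8.10 and 8.25 in pools 1 to 4, against 14.25, 14.30, 14.58 and 14.49 in GFP− cells of the same pools. After 2-octanone they were 6.76, 7.42, 9.78 and 10.57, against 13.99, 14.05, 14.51 and 14.38. No GFP+ array came near the GFP− arrays, and the 2 highest GFP+ signals were those of 2-octanone pools 3 and 4. The difference was −6.18 (SE 0.44, adjusted p = 1.4e-08), or 72.7-fold lower in GFP+ cells, and within pools the difference ran from −7.70 to −3.81. Its GFP+ signal exceeded the background level on 1 of 4 vehicle and 2 of 4 2-octanone arrays, where background is the 95th percentile of 23 background probe sets.

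Its neighbours at the H element went the other way. Olfr1508 read 13.95, 13.96, 13.87 and 14.19 in vehicle GFP+ cells and 12.67, 13.02, 13.26 and 12.20 in vehicle GFP− cells. After 2-octanone it read 13.89, 13.79, 13.44 and 14.18 in GFP+ and 12.85, 13.14, 12.72 and 13.27 in GFP− cells. All 8 GFP+ arrays lay above all 8 GFP− arrays, by a mean of 1.02 (SE 0.15, adjusted p = 4.69e-05). Olfr1509 read 12.39, 12.84, 12.86 and 12.61 in vehicle GFP+ cells and 9.59, 9.48, 9.33 and 7.93 in vehicle GFP− cells. After 2-octanone it read 13.03, 12.19, 12.46 and 13.22 against 10.47, 8.90, 9.85 and 10.23. Its difference of 3.23 (SE 0.26, adjusted p = 5.55e-08) was among the 5 largest of chromosome 14, again with no overlap between fractions. Thus of 3 receptors of subfamily MOR244 beside one enhancer, 1 had the lowest difference among the receptors of the array and both others were called higher in GFP+ cells.

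**Figure D2:**
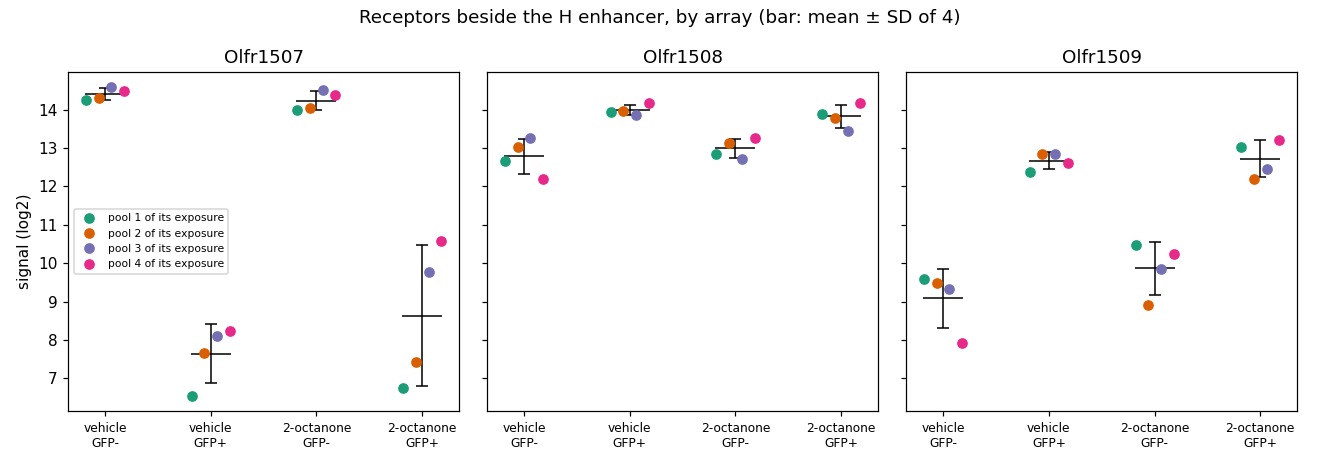
Log2 signal of Olfr1507, Olfr1508 and Olfr1509 on each of the 16 arrays by group, coloured by pool number within an exposure, with the mean ± SD of 4 arrays as bars. Olfr1507 lies between 13.99 and 14.58 in GFP− cells and between 6.55 and 10.57 in GFP+ cells, while Olfr1508 and Olfr1509 are higher in GFP+ cells.

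The RefSeq promoter table (GRCm38.p6) held 62 of the 75 members, Olfr1508 and Olfr1509 among them. It held no window of Olfr1507, so that gene could not be compared with its neighbours. The windows of Olfr1508 and Olfr1509 are shown because these neighbours were called in one direction. Each is the 250 bases before the annotated start, at chr14:52467462-52467711, minus strand, and chr14:52450143-52450392, plus strand. Capitals mark TAATGA, a homeodomain-type motif, on either strand (TCATTA is the motif on the opposite strand).
Olfr1508: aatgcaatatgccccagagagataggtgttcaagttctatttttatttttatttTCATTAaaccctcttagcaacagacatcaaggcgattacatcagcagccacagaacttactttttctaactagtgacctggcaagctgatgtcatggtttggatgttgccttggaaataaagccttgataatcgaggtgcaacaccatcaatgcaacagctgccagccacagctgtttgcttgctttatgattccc
Olfr1509: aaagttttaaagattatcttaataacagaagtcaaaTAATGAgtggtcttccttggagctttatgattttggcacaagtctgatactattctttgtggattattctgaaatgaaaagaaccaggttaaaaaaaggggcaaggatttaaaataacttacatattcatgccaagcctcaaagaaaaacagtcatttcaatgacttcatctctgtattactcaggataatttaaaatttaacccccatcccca
Olfr1508 held the motif 190 bases and Olfr1509 208 bases before the start, in opposite orientations relative to the direction of their genes. Aligned end to end, the windows shared 47.8% of positions.

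Besides Olfr1507, the remaining 7 genes of its cluster were Olfr221, called lower (−1.36, SE 0.29), 4 genes of subfamily MOR223, and Olfr1508 and Olfr1509. Of the MOR223 genes Olfr1511, Olfr1512 and Olfr1513 rose by 1.31, 1.07 and 1.15, and Olfr1510 at 0.49 was not called (adjusted p = 0.0525). Olfr1512 was not above background in 2-octanone GFP− cells, so there it was at least 1.23-fold higher in GFP+ cells.

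The largest cluster of chromosome 14 ran from Olfr722 to Olfr750 with 28 members, of which 20 were called higher and 5 lower. Its subfamily MOR246 held 6 genes, 5 higher and 1 lower. Olfr726 was the highest of all members, at 14.97, 14.92, 14.89 and 14.49 in vehicle GFP+ cells and 11.46, 11.58, 10.90 and 9.97 in vehicle GFP− cells. After 2-octanone it was 15.14, 14.51, 14.06 and 14.86 against 12.07, 11.11, 10.73 and 12.69. GFP+ arrays did not overlap GFP− arrays, and the difference was 3.41 (SE 0.28, adjusted p = 6.99e-08). Olfr725 rose by 3.24 (SE 0.22), Olfr729 by 2.69 (SE 0.17), Olfr727 by 2.29 (SE 0.20) and Olfr731 by 1.46 (SE 0.15).

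Olfr728, the 1 exception of MOR246, lies between Olfr727 and Olfr729. It read 7.46, 8.18, 6.37 and 7.60 in vehicle GFP+ cells and 13.06, 12.74, 13.00 and 12.74 in vehicle GFP− cells. The 2-octanone pools gave 6.57, 8.11, 8.78 and 9.66 against 12.67, 12.53, 12.78 and 12.61. The fractions did not overlap, and the difference was −4.92 (SE 0.33, adjusted p = 8.55e-09), ranking 19 from the lowest among 1080 receptors. The steps from Olfr727 down to Olfr728 and from there up to Olfr729 were 7.22 and 7.61 in log2 difference. With the step of 7.20 between Olfr1508 and Olfr1507 these were the 3 largest between neighbours.

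**Figure D3:**
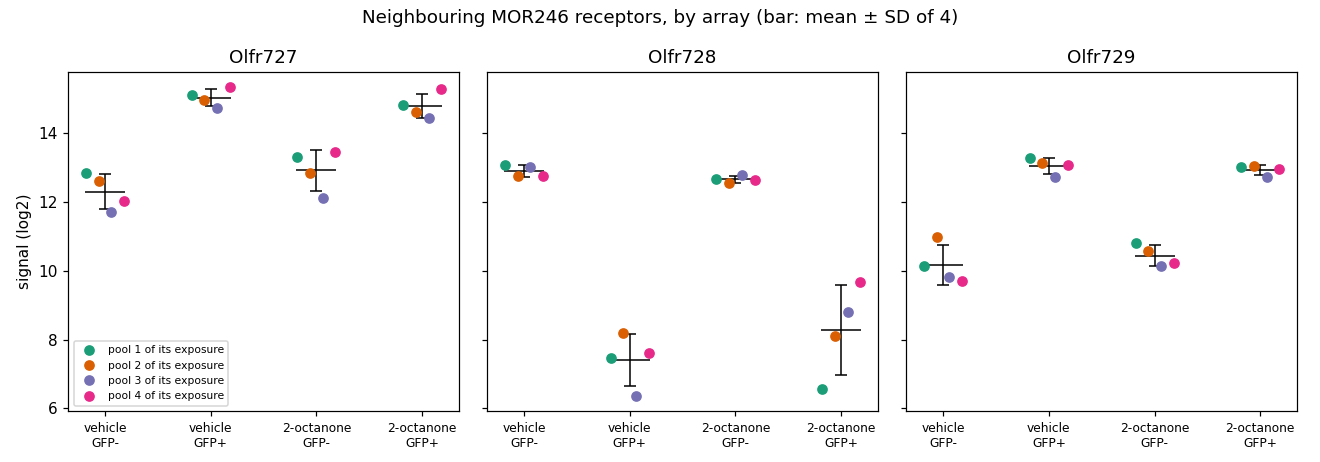
Log2 signal of the neighbouring MOR246 receptors Olfr727, Olfr728 and Olfr729 on each array by group, coloured by pool number, with the mean ± SD of 4 arrays. Olfr727 and Olfr729 are higher in GFP+ cells on every pool, and Olfr728 falls from 12.53 or more in GFP− cells to 9.66 or less in GFP+ cells.

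Subfamily MOR106 held 13 members of the same cluster, 11 higher, 1 lower and 1 not called. Olfr741 was at 16.21, 16.30, 15.42 and 15.85 in vehicle GFP+ cells and 12.84, 12.96, 12.13 and 11.31 in vehicle GFP− cells. After 2-octanone it was at 16.38, 15.83, 15.20 and 15.50 against 13.07, 12.61, 12.18 and 13.72, and all GFP+ arrays lay above all GFP− arrays. Olfr741 rose by 3.23 (SE 0.26) and Olfr743 by 3.28 (SE 0.24, adjusted p = 2.39e-08). Olfr748 was not above background on any GFP− array, so it was at least 4.10-fold higher in GFP+ cells after vehicle and at least 4.43-fold after 2-octanone. A bound here sets the mean of the brighter group against the background level of the other.

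Olfr736 was the MOR106 gene called lower. It read 7.67, 7.47, 6.52 and 7.57 in vehicle GFP+ cells, none above background, and 10.58, 10.56, 11.02 and 10.48 in vehicle GFP− cells. With 2-octanone the values were 6.72, 7.25, 7.65 and 7.08 against 10.51, 9.82, 11.39 and 9.17. It was thus at least 6.49-fold lower in GFP+ cells after vehicle and at least 5.01-fold lower after 2-octanone (adjusted p = 6.84e-08 over both exposures). Olfr750, of MOR103, closed the cluster. It was 6.75, 8.54, 7.36 and 6.98 in vehicle GFP+ cells against 10.78, 10.69, 10.72 and 10.32 in vehicle GFP− cells, with no overlap. After 2-octanone, where it was not above background in GFP+ cells, it was at least 4.09-fold lower.

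Olfr723 and Olfr724, both of MOR247, were the only neighbouring pair of the 67 pairs with both genes called lower. Olfr724 read 9.42, 9.52, 9.12 and 9.19 in vehicle GFP+ cells and 10.71, 10.97, 10.85 and 10.89 in vehicle GFP− cells. After 2-octanone it read 9.29, 9.56, 9.07 and 10.23 against 10.99, 11.36, 10.95 and 10.47. The fractions did not overlap, and the difference was −1.47 (SE 0.16, adjusted p = 1.27e-06). For Olfr723, chosen here for its place beside Olfr724 after its value was seen, it was −0.47 (SE 0.16, adjusted p = 0.0322) with overlapping arrays. The gene lost its call under median centring (−0.19, adjusted p = 0.239) and under quantile normalisation (−0.36, adjusted p = 0.0589). The third MOR247 gene, Olfr730, rose by 1.72 (SE 0.16).

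The windows before Olfr723 and Olfr724 are shown because these adjacent genes were called in one direction and nearly share the sequence. They lie at chr14:49929569-49929818, minus strand, and chr14:49961097-49961346, minus strand (GRCm38.p6), with TAATGA on the opposite strand in capitals.
Olfr723: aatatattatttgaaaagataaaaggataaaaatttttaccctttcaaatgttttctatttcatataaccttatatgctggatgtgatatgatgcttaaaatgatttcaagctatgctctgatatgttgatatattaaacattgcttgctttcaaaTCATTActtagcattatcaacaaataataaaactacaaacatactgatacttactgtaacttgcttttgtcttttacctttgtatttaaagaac
Olfr724: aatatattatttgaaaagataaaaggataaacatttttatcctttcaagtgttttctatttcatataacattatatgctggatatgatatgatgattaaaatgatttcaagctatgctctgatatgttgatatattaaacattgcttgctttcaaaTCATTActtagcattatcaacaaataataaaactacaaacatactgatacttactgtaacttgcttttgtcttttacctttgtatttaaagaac
Of 250 aligned positions 244 were identical, or 97.6%, and both windows held the motif 88 bases before the start. Whether the probes of such near-identical genes cross-hybridise was not tested, so the signals of this pair are uncertain as separate values. Other pairs differ in their calls. The windows of Olfr175, called higher, and Olfr180, called lower, shared 54.4% of aligned positions. Those of the neighbours Olfr169, called higher, and Olfr170, not called, also look alike but were not aligned. Whether shared sequence goes with a shared direction was not tested.

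Over all 62 member windows TAATGA was present in 33.9%, against 25.3% of the 944 odorant receptor windows and 8.59% of all 32851 windows of the table. TAATTA, a second homeodomain-type motif, was present in 16.1%, 18.1% and 4.84%. CCCNNGGG, the palindromic core bound by Ebf factors, was in 0 of 62 member windows, 2.75% of receptor windows and 11.8% of all windows. The motifs were searched on both strands, and TAATTA and TAATGA share their first letters and can overlap. In 36 of the 62 members the gene model opens with ATG, so the window ends at the coding start rather than at a mapped transcription start. Some of the other 26 models are also short, such as 955 bases for Olfr747, 1006 for Olfr723 and Olfr724 and 1010 for Olfr1509. Whether their windows end at a transcription start was not tested. Among these 26, TAATGA was in 5 of 12 called higher, 3 of 5 called lower and 0 of 9 not called. The 3 called lower include Olfr723 and Olfr724, whose windows are nearly identical. Among members not called whose model opens with ATG, Olfr31 and Olfr177 held TAATGA, and Olfr164 and Olfr170 did not. Whether the motif goes with a call was not tested.

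On chromosome 16 the cluster from Olfr164 to Olfr171 held 8 members, 6 called higher and 0 lower. Its genes belong to subfamilies MOR270 to MOR273 and MOR279. Olfr171 was at 14.01, 13.94, 13.33 and 12.71 in vehicle GFP+ cells and 10.61, 11.28, 10.45 and 8.87 in vehicle GFP− cells. After 2-octanone it was at 14.65, 13.56, 13.65 and 13.41 against 11.04, 10.35, 10.62 and 10.74. The fractions stayed apart, and the difference of 3.16 (SE 0.30, adjusted p = 3.13e-07) was the largest of the chromosome. Olfr166 rose by 2.80 (SE 0.34) and Olfr169 by 2.24 (SE 0.18), while Olfr164 at −0.83 (adjusted p = 0.0727) and Olfr170 at −0.12 were not called.

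The cluster from Olfr172 to Olfr209 held 25 members, 16 higher and 4 lower. Subfamily MOR182 rose in 9 of its 10 genes, led by Olfr201. That gene was at 12.98, 13.06, 12.93 and 12.23 in vehicle GFP+ cells and 9.82, 9.74, 9.79 and 8.83 in vehicle GFP− cells. After 2-octanone it was at 12.92, 12.34, 12.69 and 12.08 against 10.82, 9.56, 9.72 and 9.96, and the difference was 2.87 (SE 0.21, adjusted p = 1.58e-08) with no overlap. The tenth gene, Olfr202, was not above background on any GFP+ array. It read 6.57, 6.38, 5.71 and 5.85 in vehicle GFP+ cells against 8.43, 9.06, 8.29 and 10.37 in vehicle GFP− cells, which makes it at least 2.11-fold lower. After 2-octanone the bound was 1.26-fold (adjusted p = 1.53e-05 over both exposures).

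Subfamily MOR184 was split, with 2 genes higher, 2 lower and 4 not called among 8. Olfr175 read 13.49, 13.23, 12.72 and 12.54 in vehicle GFP+ cells and 10.48, 10.08, 10.74 and 8.37 in vehicle GFP− cells. The 2-octanone values were 13.17, 12.76, 12.09 and 12.66 against 11.13, 9.80, 10.32 and 9.72. Olfr175 was thus 2.75 (SE 0.31) higher in GFP+ cells and above GFP− cells on every array. Olfr180 read 8.95, 9.99, 8.91 and 9.93 in vehicle GFP+ cells and 12.61, 12.30, 12.11 and 12.28 in vehicle GFP− cells. In the 2-octanone pools it was 8.59, 9.78, 10.05 and 10.44 against 12.30, 12.18, 12.35 and 12.10, so that it fell on every pool (−2.70, SE 0.23, adjusted p = 1.03e-07). Olfr195 was also lower in all pools, with differences from −3.20 to −0.99, and Olfr178 was called higher (1.23, SE 0.28). Of 6 MOR183 genes 4 rose, led by Olfr191 (2.24, SE 0.20). Olfr183, the MOR183 gene called lower, was not above background in 2-octanone GFP+ cells, where it was at least 1.13-fold lower.

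The remaining members of chromosome 16 lay outside these clusters. Olfr19 (MOR140) had no other member within 500000 bases. It read 7.44, 8.06, 7.12 and 7.47 in vehicle GFP+ cells and 12.32, 12.12, 12.54 and 12.33 in vehicle GFP− cells. After 2-octanone it read 7.26, 8.78, 9.03 and 8.40 against 11.99, 12.69, 12.87 and 11.51. It was lower on every pool, with a difference of −4.35 (SE 0.24, adjusted p = 1.35e-09), and ranked 34 from the lowest of the 1080 receptors. Olfr15 (MOR256), known as a broadly tuned receptor, read 15.32, 15.44, 15.60 and 14.59 in vehicle GFP+ cells and 12.98, 13.28, 12.85 and 10.74 in vehicle GFP− cells. It rose by 2.59 (SE 0.30, adjusted p = 3.97e-06). Its neighbour Olfr161 was not above background in any group, as were Olfr172, Olfr746 and Olfr747, and no fold is given for these 4.

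The members not called numbered 13, with differences from −0.83 to 0.49. With the pool as a random block Olfr1510 (adjusted p = 0.0313), Olfr164 (0.0475) and Olfr732 (0.0389) passed the limma test, and with the pool as a fixed block Olfr733 did not (0.0841). On chromosome 14 the members not called were Olfr31, Olfr49, Olfr722, Olfr732, Olfr747 and Olfr1510, and on chromosome 16 Olfr164, Olfr170, Olfr172, Olfr173, Olfr177, Olfr181 and Olfr186. The others called higher on chromosome 14 were Olfr720, Olfr733, Olfr734, Olfr735, Olfr738, Olfr739, Olfr740, Olfr742, Olfr744, Olfr745, Olfr746 and Olfr749, from 0.53 for Olfr735 to 3.02 for Olfr742. Of these, Olfr735 and Olfr744 were not above background in 2-octanone GFP− cells, where they were at least 1.05-fold and 2.18-fold higher in GFP+ cells. The others called higher on chromosome 16 were Olfr165, Olfr167, Olfr168, Olfr187, Olfr190, Olfr193, Olfr194, Olfr196, Olfr198, Olfr199, Olfr203, Olfr204, Olfr205, Olfr206 and Olfr209, from 0.56 for Olfr190 to 2.30 for Olfr203.

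Position and subfamily were set beside the direction of the sort as a description. The order of the genes was taken from RefSeq. Neighbours were members next to each other within a cluster, and a cluster ended where the next member was over 500000 bases away. Of 67 neighbouring pairs 48 had both genes called, 33 both higher, 1 both lower and 14 in opposite directions, and 7 of these 14 pairs were of 1 subfamily. Across the 67 pairs the correlation of the neighbours' differences was −0.03, where the pairs share genes and all share the same arrays. Of the 13 members called lower, 4 lay between neighbours that were both called higher, namely Olfr728, Olfr736, Olfr195 and Olfr202.

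Genes of the shared signalling pathway had differences of under 1 in either direction. Of 15 odorant signalling genes 8 were called higher and 1 lower, with a median of 0.30. The gene called lower, Grk3, a receptor kinase, was not above background on any array, so no difference is given for it. Of the 8 called higher, Cngb1 was above background on 1 vehicle GFP+ array and on no array of the other groups. Pde1c, a phosphodiesterase of the cilium, rose by 0.72 (SE 0.09) and Ano2, the calcium-activated chloride channel, by 0.53 (SE 0.09). Adcy3 rose by 0.37 (SE 0.11) and Cnga2 by 0.30 (SE 0.09). Of 19 genes for receptor choice and trafficking 2 rose and 2 fell (median 0.07). Those that rose were Reep1 (0.43) and Rtp2 (0.45), which help receptors reach the membrane, and those that fell were Lbr (−1.85) and Cbx5 (−0.34), which act in heterochromatin. With each array centred on its median, 13 of the 15 signalling genes were called higher (median 0.58) and Grk3 lower. Of the 19 genes for choice and trafficking 14 were then called higher (median 0.35) and Lbr alone lower.

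Markers of other cells also differed between the fractions. All 7 measured neutrophil genes were called lower in GFP+ cells (median −7.15), as were 5 of 6 genes of immature neurons (median −2.94), 2 of 5 sustentacular and 2 of 4 macrophage genes. With genes not above background set to the background level, the medians were −7.05 for neutrophils and −2.51 for immature neurons. All 4 measured precursor genes were also called lower, but none was above background in vehicle GFP+ cells and Neurog1 was not above it in any group, so their size is not given. Both macrophage genes called lower, Tyrobp and Aif1, were not above background on any GFP+ array. With each array centred on its median the sustentacular median turned from −0.11 to 0.17, and 1 of 6 genes of immature neurons was called higher. Among 7 mature neuron genes 3 were higher (median 0.23), and Omp, the mature neuron marker, was at 17.76 to 18.45 on all 16 arrays and differed by 0.15 (SE 0.09, adjusted p = 0.206). Under that scaling all 7 were called higher, Omp by 0.43 (adjusted p = 0.000633). The summed neutrophil signal, as log2 of the sum over 7 genes, ran from 10.24 to 12.45 in vehicle GFP+ cells and from 19.01 to 19.48 in vehicle GFP− cells. It ran from 10.68 to 17.24 in 2-octanone GFP+ cells and from 18.84 to 19.97 in 2-octanone GFP− cells. Their part in the receptor differences was not tested.

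The exposure to 2-octanone was compared with vehicle to see which receptors respond to this odorant. No member was called in GFP+ cells, in GFP− cells or for the change of the GFP+/GFP− difference. In GFP+ cells 0% of all named probe sets were called, in GFP− cells 0.00511% (0.0926% of all odorant receptors) and for the change 0%. At an unadjusted limma p under 0.05 there was 1 member for the GFP+ fraction, 3 for the GFP− fraction and 1 for the change, against 3.16%, 2.44% and 2.38% of all named probe sets. No member had its 4 2-octanone arrays all above or all below its 4 vehicle arrays in either fraction, which 0.93% and 0.858% of all named probe sets did in the GFP+ fraction and 1.12% and 0.7% in the GFP− fraction. The members' median difference was −0.09 in the GFP+ and 0.10 in the GFP− fraction.

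In GFP+ cells the 3 members with the smallest p on the higher side were Olfr19, Olfr728 and Olfr1507, all of them called lower in the sort. Olfr19 differed by 0.85 (SE 0.34) and was the 1 member with an unadjusted p under 0.05, with 3 of its 4 2-octanone arrays above every vehicle array. Olfr728 differed by 0.88 (SE 0.47) and Olfr1507 by 0.99 (SE 0.62). The background level of the vehicle GFP+ arrays ran from 7.75 to 8.18. Below it lay the vehicle GFP+ signals of Olfr19 in pools 1, 3 and 4 (7.44, 7.12 and 7.47). The same held for Olfr728 in these pools (7.46, 6.37 and 7.60). Olfr1507 was above background on 1 of 4 vehicle GFP+ arrays and read 6.55 and 7.66 in pools 1 and 2. All 3 differences thus start from near background. For Olfr728 and Olfr1507 the highest values were those of 2-octanone pools 3 and 4, the pools with the raised neutrophil signal. Without these pools the differences were 0.50 for Olfr19, −0.063 for Olfr728 and −0.55 for Olfr1507. The part of other cells in these values was not tested. On the lower side were Olfr731 (−0.41, SE 0.21), Olfr730 (−0.36, SE 0.23) and Olfr746, which was not above background.

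**Figure D4:**
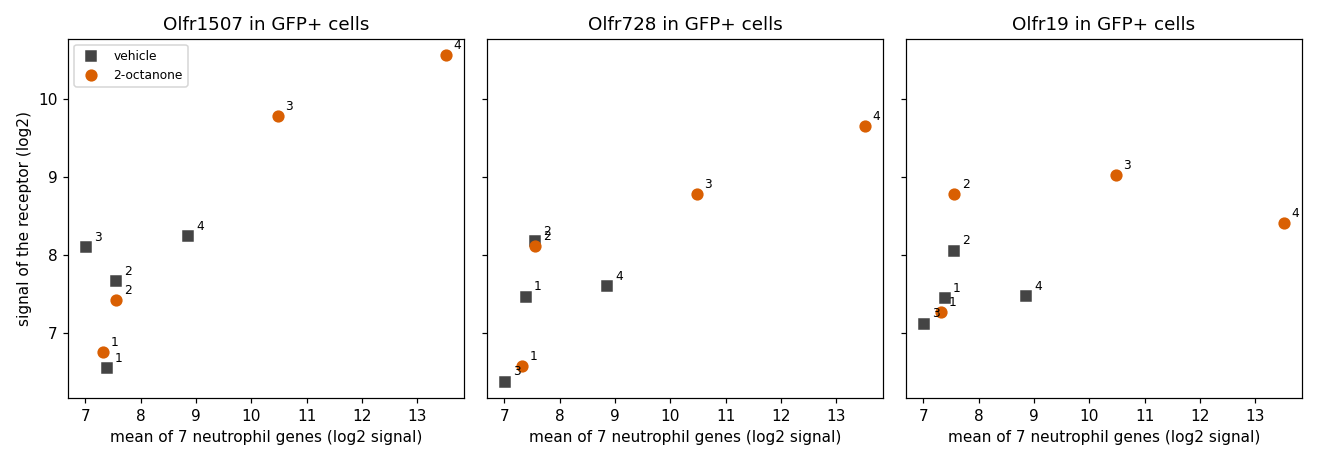
Log2 signal of Olfr1507, Olfr728 and Olfr19 on the 8 GFP+ arrays (vertical) against the mean log2 signal of 7 neutrophil genes on the same array (horizontal), squares for vehicle and circles for 2-octanone, numbered by pool. 2-octanone pools 3 and 4 lie farthest right at 10.48 and 13.51 and hold the highest Olfr1507 signals, 9.78 and 10.57.

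In GFP− cells Olfr727 read 12.83, 12.61, 11.70 and 12.03 after vehicle and 13.29, 12.84, 12.10 and 13.43 after 2-octanone, a difference of 0.62 (SE 0.29) with overlapping arrays. Olfr1509, given above by array, differed by 0.78 (SE 0.37). Olfr161 differed by 0.46 but was not above background in any group. These were the 3 members with an unadjusted p under 0.05. Lower after 2-octanone by value were Olfr202 (−0.81, SE 0.42), Olfr750 (−0.70, SE 0.34) and Olfr736 (−0.44, SE 0.37), none with an unadjusted p under 0.05. For the change of the GFP+/GFP− difference the smallest p on the higher side was that of Olfr202 (1.28, SE 0.59), whose GFP+ signals were all at background. Next were Olfr19 (0.91, SE 0.49) and Olfr728 (1.11, SE 0.67), both near background in vehicle GFP+ cells. On the lower side Olfr727 was at −0.87 (SE 0.41), Olfr731 at −0.59 (SE 0.30) and Olfr161 at −0.50.

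**Figure D5:**
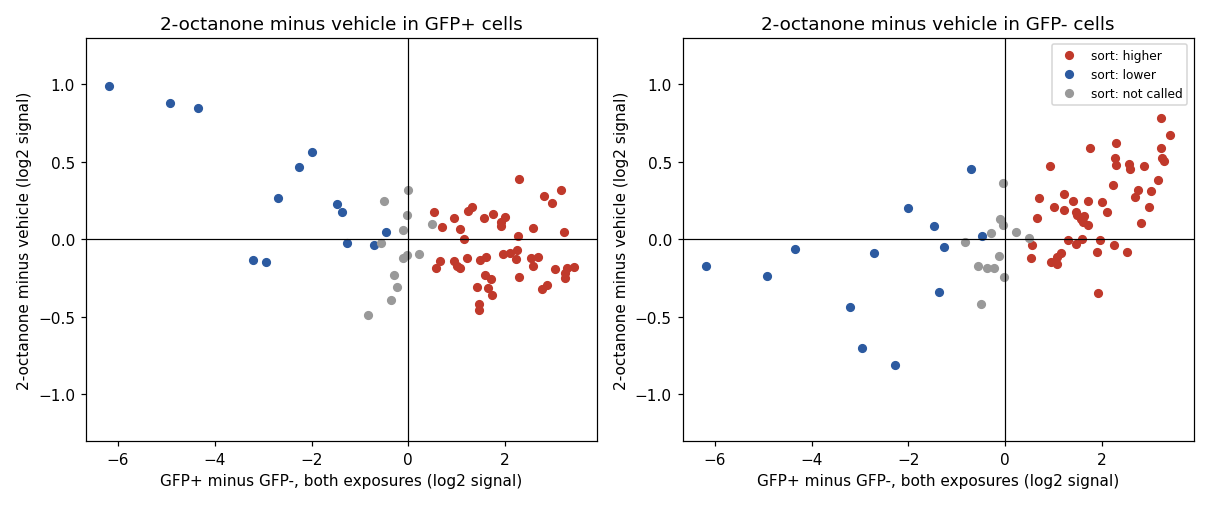
2-octanone minus vehicle difference (log2 signal) of the 75 members in GFP+ cells (left) and GFP− cells (right) against their GFP+ minus GFP− difference over both exposures, coloured by the call of the sort. Both axes are computed from the same arrays. All values lie between −0.81 and 0.99, and none was called.

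The size of the GFP+/GFP− difference was also compared by exposure. In 55 of 75 members it was smaller after 2-octanone than after vehicle, and among the 62 members called in the sort the median size was 1.99 after vehicle and 1.84 after 2-octanone. Without vehicle pool 4 the count was 46 and the medians were 1.88 and 1.84. Without both pools numbered 4 the count was 49, but the median size was slightly larger after 2-octanone (1.89, against 1.88 after vehicle). Without the 2-octanone pools numbered 3 and 4 the count was 48 and the medians were 1.99 and 1.94. The median of members called higher ran from 1.79 to 2.64 over the vehicle pools and from 1.47 to 2.20 over the 2-octanone pools, so the exposures overlapped. No member's change was called. These counts were not made over all odorant receptors or all named probe sets, and the 75 members share the same arrays.

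The spread between pools is 1 limit on what can be seen. The median SD of a member over 4 arrays was 0.39 in vehicle GFP+, 0.54 in vehicle GFP−, 0.47 in 2-octanone GFP+ and 0.45 in 2-octanone GFP− cells. It was highest for Olfr1507 in 2-octanone GFP+ cells, at 1.83. Of the 75 members 12 were not above background on any array of at least 1 group.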

How the data were processed

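The arrays measured RNA of GFP+ and GFP− cells from 8 pools of 3 mice. The authors deposited 1 table of log2-scale signals for 28846 probe sets, made with Affymetrix Expression Console per the submitters' processing notes. Log base, normalisation and genome build are not given in the sources used here. The values run from 2.13 to 18.99 and were read as log2. Left out were 6640 control and 2634 unnamed probe sets, and the other 19572 were tested.

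All 16 arrays were fitted by group means with limma 3.58.1 in R 4.3.3 (lmFit, eBayes, two-sided, 12 residual degrees of freedom) and adjusted by Benjamini-Hochberg over all 19572. The fit was tested on simulated data. Differences were GFP+ minus GFP−, 2-octanone minus vehicle, and the change of the former with the latter. The depth of an array is not a count, so the number of arrays, 4 per group, limits the precision.

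That both fractions of a pool number come from the same mice is inferred, since 24 mice make 8 pools of 3. The labels do not state it. Same-pool residuals of the fractions correlated at −0.0047 to 0.46 across genes. Pools of one number in different exposures correlated at 0.17 to 0.43 in GFP+ and −0.063 to 0.52 in GFP− cells, those of different numbers at −0.28 to 0.089 and −0.56 to 0.34. In GFP+ cells each array correlated best with its own number, and every such pair exceeded 0.1. The labels do not say what the number marks, and fits with and without it as a block are both given.

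The members, gene lists and tests were chosen with earlier results of these data known. Named are, per chromosome, the 5 members with the largest called difference in each direction of the sort, the 3 with the smallest p in each direction for each 2-octanone comparison, and Olfr1507 to Olfr1509. Further members are named by cluster or subfamily and were chosen after their values were seen. Protein identity between members was not analysed here. The alternatives are given at the end.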

Additional observations from a re-analysis of the deposited data

Results flagged for a closer look

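Of 104 groups of 4 arrays tested for the named members, 6 held 1 array far from the others, where chance gives about 1 in 20. Of these 6 flags 5 fell in vehicle pool 4. The 104 groups share the same 16 arrays, so the flags are not independent of each other. In its GFP− fraction Olfr15 was 10.74 (nearest array 12.85), Olfr166 was 10.99 (nearest 13.26), Olfr1509 was 7.93 (nearest 9.33) and Olfr201 was 8.83 (nearest 9.74). In its GFP+ fraction Olfr201 was 12.23 (nearest 12.93). The sixth was Olfr750 in the GFP+ cells of 2-octanone pool 1, at 6.39 (nearest 7.50) and not above background.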

How the results depend on the processing

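Over 19 alternatives the 49 members called higher and 13 called lower in the sort stayed within 1.5 times, and no alternative gave a member a 2-octanone call. Without probe sets below the median mean signal, which leaves fewer members to test, 3 members of chromosome 16 were called lower, against 6. Members not above background in at least 1 group numbered 12, but 2 with the 50th percentile of background probe sets as the level and 15 with the 99th. Omitting the 2-octanone pools numbered 3 and 4 turned the difference between 2-octanone and vehicle in GFP+ cells to −0.55 for Olfr1507, −0.063 for Olfr728 and 0.15 for Olfr746, and the cause was not tested. With the pool as a replicate block 48 members were called higher and 13 lower (fixed), or 50 and 15 (random). Of all 19572 named probe sets 7038 were called with the fixed and 7412 with the random block. With the replicate number as a block 0 members were called for 2-octanone in either fraction. Olfr1510 gained a call with median centring (0.77) and Olfr732 under quantile normalisation (−0.58). The random block added Olfr1510 to the higher and Olfr164 and Olfr732 to the lower calls, and the fixed block removed Olfr733. Olfr723 lost its call under median centring and under quantile normalisation. A tally of single genes covered only the 26 members named by the rule, S100a5 and Omp, not Olfr723, Olfr733, Olfr1510, Olfr732 or Olfr164. In it 766 results under an alternative kept direction and call, 3 reversed and 3 gained a call. Of the 3 gained, 2 were of S100a5 and 1 of Omp. All named probe sets called in the sort numbered 6000, but 15141 with each array centred on its median and 3664 without those below the median mean signal. The mean of a gene's probe sets was not run, since each member had 1. The 4 arrays per group and background limit what can be seen in dim receptors.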
